A study of Drosophila melanogaster with 2 samples.

Results

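The genes described here encode the translation initiation factors (eIF) and elongation factors (eEF) of Drosophila melanogaster. They were chosen by name: every protein-coding gene whose symbol starts with eIF or eEF, which gave 52 of the 13945 protein-coding genes on the 6 chromosome arms analysed (2L, 2R, 3L, 3R, 4 and X), of 13986 in the annotation. The rule used the symbol and no binding value. It took in eIF4EHP, a cap-binding repressor, and eIF6, which keeps the ribosomal subunits apart, and it left out translation regulators with other names. Binding was measured by ChIP-seq of Stat92E, the STAT protein through which JAK signalling acts on genes in flies, in whole embryos of mixed sex aged 0 to 12 h. All embryos came from 1 transgenic line that stably carries Stat92E with eGFP at its C-terminus. The labels describe an immunoprecipitation with an anti-GFP antibody, while the antibody field names Stat92E. The series holds a single group of 2 biological replicates (labelled 1 and 3), and no control sample was analysed here.

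Translation begins when eIF2 carries the initiator tRNA to the small ribosomal subunit, while the eIF4 factors bring the capped mRNA and eIF3 holds the complex together. After the start codon is found, the large subunit joins and the elongation factors deliver aminoacyl-tRNAs and move the ribosome along the mRNA. Proliferating tissue depends on these factors, and early embryos also use them to control which maternal mRNAs are translated, for example through the repressor eIF4EHP.

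The measurements are positions and strengths of peaks in 4 deposited lists on genome build dm6. Both replicate lists and the pooled list were 30000 peaks long. Their lowest −log10 q-values were 0.331 in replicate 1, 0.447 in replicate 3 and 0.396 in the pooled list. A place in these lists alone therefore does not mean that a peak was significant. A further list had been thresholded by the irreproducible discovery rate (IDR), a measure of how well peak ranks agree between replicates. Its 3603 peaks were the 3603 strongest of the pooled list, so it is named the IDR-thresholded list without implying that each of its peaks is strong in both replicates. Signal is the authors' score per peak, with no stated unit. It served to rank peaks within a list, with rank 1 the strongest, and was not compared between lists. A gene was said to have a promoter summit when the summit of a peak lay within 1 kb of any of its annotated transcription start sites (TSSs). The lists give no read counts, so the depth behind each peak is unknown. Whole embryos mix cell types and ages, so a small share of bound cells and a low occupancy in each cell cannot be told apart. With 1 group and 2 replicates no test over samples was possible, and genes and peaks are not replicates, so shares are given side by side as a description.

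The strongest promoter summits and the motif matches near them are shown first, since the counts below refer to them. Sequences are from the RefSeq copy of Release 6 (the dm6 assembly), written 5′ to 3′. The windows of 101 bases centred on the summits beside eIF2Bbeta (chrX:2703853-2703953, plus strand, rank 30) and eIF4EHP (chr3R:24109086-24109186, minus strand, rank 83), the strongest at any member, held none of the motifs searched at summits.
eIF2Bbeta summit: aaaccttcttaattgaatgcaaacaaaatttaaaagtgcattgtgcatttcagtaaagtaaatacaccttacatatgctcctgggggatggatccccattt
eIF4EHP summit: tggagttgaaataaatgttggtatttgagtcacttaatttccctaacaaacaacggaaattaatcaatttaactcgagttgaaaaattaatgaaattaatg
Both STAT-type matches at members' IDR-thresholded summits are shown in 30 bases, with the match in capitals: upstream of eIF4A (chr2L:5980917-5980946, plus strand) and in eEF1gamma (chr3R:29220215-29220244, plus strand).
eIF4A STAT site: ctaaacggatTTCCAGGAAacccacggcac
eEF1gamma STAT site: tccgcgttttTTCGCTGAAtttgccactat
Both matches to GGTCACA, the core of core promoter motif 1, lay at the summits of eIF2Bepsilon (chrX:1922997-1923026, plus strand) and eIF2beta (chr3L:12526696-12526725, minus strand), again in capitals.
eIF2Bepsilon motif 1 core: attgccacactGGTCACAccgcgaaaacgg
eIF2beta motif 1 core: taaaactcagccGGTCACAccgtctgattg

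The DNA replication-related element (DRE), bound by the factor DREF at many promoters of housekeeping genes, was searched as ATCGATA and as the longer TATCGATA that contains it. The 120 bases before the TSS are shown, in the direction of transcription and with the DRE in capitals, for 4 members with a promoter summit in the IDR-thresholded list and for eIF3l and eIF4B, which had none there. The windows are chr3R:29220052-29220171 (plus strand) for eEF1gamma, chr3R:4714183-4714302 (minus strand) for eIF3f1, chr2L:5981644-5981763 (plus strand) for eIF4A, chr3L:9402461-9402580 (minus strand) for eIF4E1, chr3L:12146098-12146217 (minus strand) for eIF3l and chr3L:27858272-27858391 (minus strand) for eIF4B.
eEF1gamma: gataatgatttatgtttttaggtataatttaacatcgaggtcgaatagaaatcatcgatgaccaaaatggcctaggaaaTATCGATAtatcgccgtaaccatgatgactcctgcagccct
eIF3f1: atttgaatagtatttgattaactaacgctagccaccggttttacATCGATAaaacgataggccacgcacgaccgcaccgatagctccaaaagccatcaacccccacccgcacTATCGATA
eIF4A: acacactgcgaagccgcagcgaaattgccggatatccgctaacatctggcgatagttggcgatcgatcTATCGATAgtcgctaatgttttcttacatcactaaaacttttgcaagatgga
eIF4E1: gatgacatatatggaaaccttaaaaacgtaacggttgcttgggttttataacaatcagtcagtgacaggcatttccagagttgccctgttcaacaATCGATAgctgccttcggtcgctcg
eIF3l: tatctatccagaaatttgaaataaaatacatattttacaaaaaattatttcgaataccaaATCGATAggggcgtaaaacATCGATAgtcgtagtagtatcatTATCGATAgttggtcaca
eIF4B: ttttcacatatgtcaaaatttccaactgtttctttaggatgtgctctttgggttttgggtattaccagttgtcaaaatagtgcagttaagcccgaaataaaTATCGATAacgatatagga

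Of the 52 translation factor genes, 22 (42.3%) had a promoter summit in the IDR-thresholded list, where 21.3% of all 13945 genes (members included) had one. In the pooled list 40 members (76.9%) had a promoter summit, beside 59.3% of all genes. The replicate 1 list gave 41 members (78.8%), beside 58.5% of all genes, and the replicate 3 list gave 39 (75%), beside 61% of all genes. The pooled list and both replicate lists together held 38 members (73.1%), beside 53.2% of all genes. In none of the 4 lists did 10 members (19.2%) have a promoter summit, as was so for 33.8% of all genes. The members' shares thus lay above the background in each of the 4 lists, and no test of these differences was made.

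Counted down the pooled list, members were present at every depth. Among the 100 strongest peaks 2 members (3.85%) had a promoter summit, beside 0.495% of all genes. Among the 1000 strongest there were 6 members (11.5%), beside 5.7% of all genes, and among the 10000 strongest 33 members (63.5%), beside 43.1%. When genes without a summit were placed beyond the end of the list, the median best rank was 5824 over the 52 members, beside 15254 over all genes. For the 92 cytoplasmic ribosomal protein genes, the structural proteins of the ribosome, 67 (72.8%) had a promoter summit in the IDR-thresholded list. For the 48 proteasome subunit genes, 14 (29.2%) had one. Translation factor genes lay between these lists in the IDR-thresholded list and the pooled list, where the ribosomal protein genes reached 91.3% and the proteasome genes 68.8%. The proteasome share did not stay above that of all genes: in the strongest peaks of both replicates it was 4 of 48 (8.33%), beside 14.2% of all genes. Within the 100 strongest peaks, 0 of 92 ribosomal protein genes and 0 of 48 proteasome genes had a summit, and both members found there had another gene's TSS within 1 kb.

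**Figure D1:**
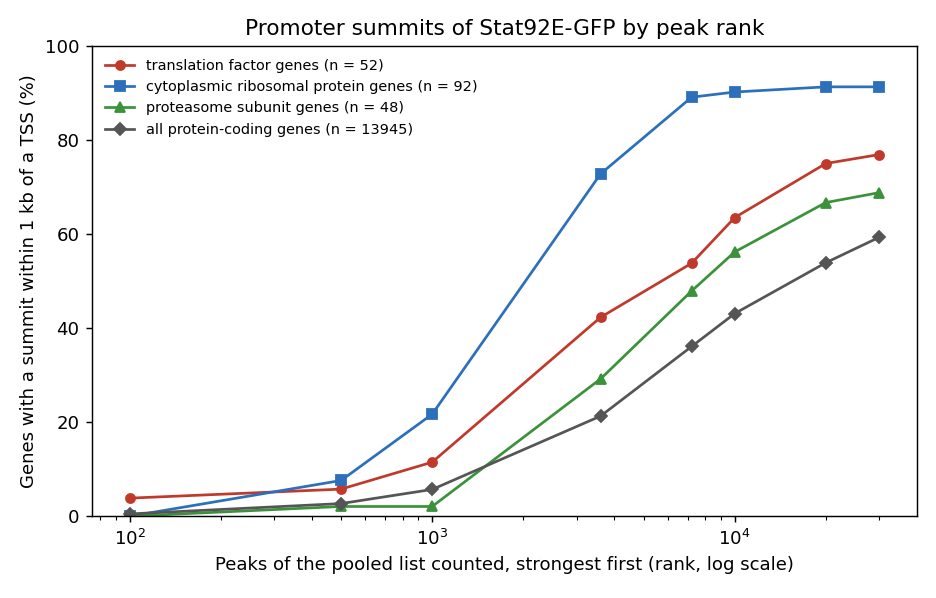
Share of genes (%, vertical axis) with a summit within 1 kb of a TSS among the strongest peaks of the pooled list, counted down to the rank on the logarithmic horizontal axis, for translation factor genes (red), ribosomal protein genes (blue), proteasome genes (green) and all protein-coding genes (grey). At rank 3603 the shares were 42.3%, 72.8%, 29.2% and 21.3% in that order.

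Among the 8 elongation factor genes, 4 had a promoter summit in the IDR-thresholded list and all 8 in the pooled list. The shares over all genes were 21.3% and 59.3%. eEF1alpha1, which delivers aminoacyl-tRNA to the ribosome, had signals of 106 (rank 1415) in replicate 1 and 123 (rank 380) in replicate 3, and ranked 714 in the pooled list with an exonic summit 28 bp downstream of an internal TSS. A further eEF1alpha1 summit at pooled rank 2516 lay 14 bp from the TSS of ERp60, a protein disulfide isomerase gene on the other strand, and ranked 15587 in replicate 1 and 678 in replicate 3. eEF2, the translocation GTPase, had signals of 125 (rank 835) in replicate 1 and 83.2 (rank 1319) in replicate 3. Its summit at pooled rank 919 was intronic and lay 170 bp downstream of the TSS. The replicate 1 summit was exonic, 57 bp downstream of the TSS and 113 bp from that pooled summit. It was nearer to a weaker one, at pooled rank 4627. eEF1gamma, a subunit of the exchange factor that recharges eEF1alpha, had signals of 127 (rank 794) in replicate 1 and 76.9 (rank 1642) in replicate 3, and its summit at pooled rank 1055 lay 19 bp downstream of the TSS. eEF5, the hypusine-bearing factor known in other species as eIF5A, ranked 2805 in replicate 1 and 3052 in replicate 3, and 2548 in the pooled list. The other 4 elongation factor genes were weaker. The catalytic exchange subunits eEF1delta and eEF1beta ranked 8558 and 9067 in the pooled list. The eEF1beta summit at rank 9067 lay 438 bp upstream of its TSS and 70 bp from that of Psi, a splicing regulator gene, and the summit nearest its own TSS ranked 11037. eEFSec, the selenocysteine-specific factor, had a single pooled summit 963 bp from its TSS at rank 18221, close to the 1 kb limit and 558 bp from the TSS of Acox57D-p. eEF1alpha2, the paralog of eEF1alpha1, reached rank 26881 in the pooled list and 21840 in replicate 1, and had no promoter summit in replicate 3. The −log10 q-values of these pooled peaks were low, 0.844 at eEFSec and 0.465 at eEF1alpha2.

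The eIF2 complex and its exchange factor eIF2B comprise 8 genes. Of these, 4 had a promoter summit in the IDR-thresholded list, beside 21.3% of all genes. The strongest at any member lay beside eIF2Bbeta (chrX:2704571-2706217), at rank 30 of the pooled list, with signals of 317 (rank 44) in replicate 1 and 254 (rank 40) in replicate 3. That summit was 668 bp upstream of eIF2Bbeta and only 51 bp from the TSS of Ugalt, a UDP-galactose transporter gene read in the opposite direction. eIF2gamma, the GTP-binding subunit of eIF2, had signals of 89.2 (rank 2248) in replicate 1 and 88 (rank 1078) in replicate 3, at pooled rank 1606. Its TSS is also that of Su(var)3-9, a histone methyltransferase gene, so the intronic summit 179 bp downstream cannot be ascribed to either gene. The summit of eIF2beta lay 15 bp downstream of its TSS, in an exon, at ranks 3174 in replicate 1 and 4100 in replicate 3. At eIF2Bepsilon, the catalytic subunit of eIF2B, ranks were 3749 in replicate 1 and 2577 in replicate 3. The strongest pooled summit lay 138 bp from its own TSS but 31 bp from that of Ocrl, a phosphoinositide phosphatase gene. The replicate 1 summit was 191 bp from that pooled summit and nearer to a weaker one, at pooled rank 8659. eIF2alpha, the subunit phosphorylated under stress, ranked 9344 in the pooled list, eIF2Bdelta 10300 and eIF2Bgamma 12855. The eIF2Bdelta summit lay 732 bp from its own TSS and 321 bp from that of CG30414. eIF2Balpha had a promoter summit in replicate 3 alone, at rank 4861, and the nearest pooled summit was 2682 bp away.

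All 7 genes for start site selection, subunit joining and related steps had a promoter summit in the pooled list and in both replicate lists. Over all genes the shares were 59.3% in the pooled list, 58.5% in replicate 1 and 61% in replicate 3. The IDR-thresholded list held 3 of the 7, beside 21.3% of all genes. eIF5B, the GTPase that joins the subunits, differed most between replicates of all members, with a signal of 129 (rank 754) in replicate 1 and 28.7 (rank 12150) in replicate 3. The −log10 q-value of that replicate 3 peak was 1.56, while the highest in its list was 4.02. eIF6, which holds the large subunit back from joining, ranked 2088 in the pooled list with a summit 56 bp upstream of its TSS. The replicate 3 summit there ranked 915, the one in replicate 1 ranked 4729, and the best replicate 1 summit within 1 kb of eIF6, at rank 3298, was a different peak. eIF1, which guards start codon choice, had its IDR-thresholded summit at rank 3564, the weakest among the members, 514 bp upstream of its TSS and 85 bp from the TSS of the ribosomal protein gene RpL28. Just below the end of the IDR-thresholded list came eIF2A, an alternative initiator tRNA carrier, at pooled rank 4221. eIF2D ranked 5309, eIF5, the GTPase activator of eIF2, 6015, and eIF1A, the partner of eIF1 in scanning, 12663. The eIF5 summit at rank 6015 lay 653 bp upstream of its TSS and 73 bp from that of exd, a homeobox gene, and the one at its own TSS, which CG46312 shares, ranked 19857.

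Of the 16 genes for eIF3 subunits, 6 had a promoter summit in the IDR-thresholded list, beside 21.3% of all genes. In the pooled list 12 had one, beside 59.3%. eIF3a, a scaffold subunit, had signals of 80.9 (rank 2862) in replicate 1 and 92 (rank 929) in replicate 3, at pooled rank 1598. eIF3j, a peripheral subunit, had signals of 107 (rank 1354) in replicate 1 and 59.2 (rank 3172) in replicate 3, at pooled rank 1685. These 2 genes stood on opposite sides, the eIF3a rank being better in replicate 3 and the eIF3j rank better in replicate 1. At the core subunit eIF3b the summit, pooled rank 1717, lay 368 bp upstream of the TSS and 21 bp from the TSS of Patronin, a microtubule minus-end protein gene. The summits of eIF3f1 (pooled rank 1986), eIF3c (2063) and eIF3h (3331) lay 58, 2 and 6 bp from their own TSSs. Another 6 subunit genes had weaker pooled summits, namely eIF3k (rank 5633), eIF3m (6395), eIF3d1 (8664), eIF3e (9328), eIF3i (10636) and eIF3l (17639). The eIF3l summit at rank 17639 lay 246 bp from the TSS of Nrx-IV, a septate junction gene, and 668 bp from its own, next to which a summit ranked 19771. eIF3d1 ranked 14690 in replicate 1 but 3622 in replicate 3. eIF3g1 had a promoter summit in replicate 1 alone, at rank 16929, and the nearest pooled summit lay 1178 bp away, just outside the limit. The second copies eIF3d2, eIF3f2 and eIF3g2 had no promoter summit in any list.

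The cap-binding eIF4 group fell into an upper and an empty set. Of its 13 genes, 5 had a promoter summit in the IDR-thresholded list, only 1 more (eIF4E6, pooled rank 4194) in the pooled list, and 7 in no list. Over all genes, 21.3% had one in the IDR-thresholded list, 59.3% in the pooled list and 33.8% in no list. eIF4EHP (chr3R:24063077-24108960) had signals of 268 (rank 74) in replicate 1 and 179 (rank 127) in replicate 3, at pooled rank 83. This summit lay 176 bp upstream of eIF4EHP and 200 bp from the TSS of CG18428, and another summit of the same peak region, at rank 2290, coincided with the CG18428 TSS. That weaker summit had its nearest replicate summits at rank 4235 in replicate 1 and 2679 in replicate 3. eIF4A, the RNA helicase that unwinds mRNA leaders, had signals of 171 (rank 301) in replicate 1 and 151 (rank 206) in replicate 3 at a summit 856 bp upstream of its TSS and 110 bp from that of chic, the profilin gene. A weaker summit, pooled rank 3522, lay 155 bp downstream of the eIF4A TSS in an intron, with ranks of 7516 in replicate 1 and 1825 in replicate 3. The scaffold gene eIF4G2 had signals of 143 (rank 553) in replicate 1 and 82.4 (rank 1349) in replicate 3, at pooled rank 754, and shares its TSS with CG33111. eIF4E1, the main cap-binding protein, had signals of 122 (rank 906) in replicate 1 and 48.2 (rank 4960) in replicate 3, at pooled rank 1504. The replicate 3 summit nearest to the pooled one was weaker, at rank 9967. eIF4H1, a helicase cofactor, ranked 2317 in replicate 1 and 2336 in replicate 3.

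**Figure D2:**
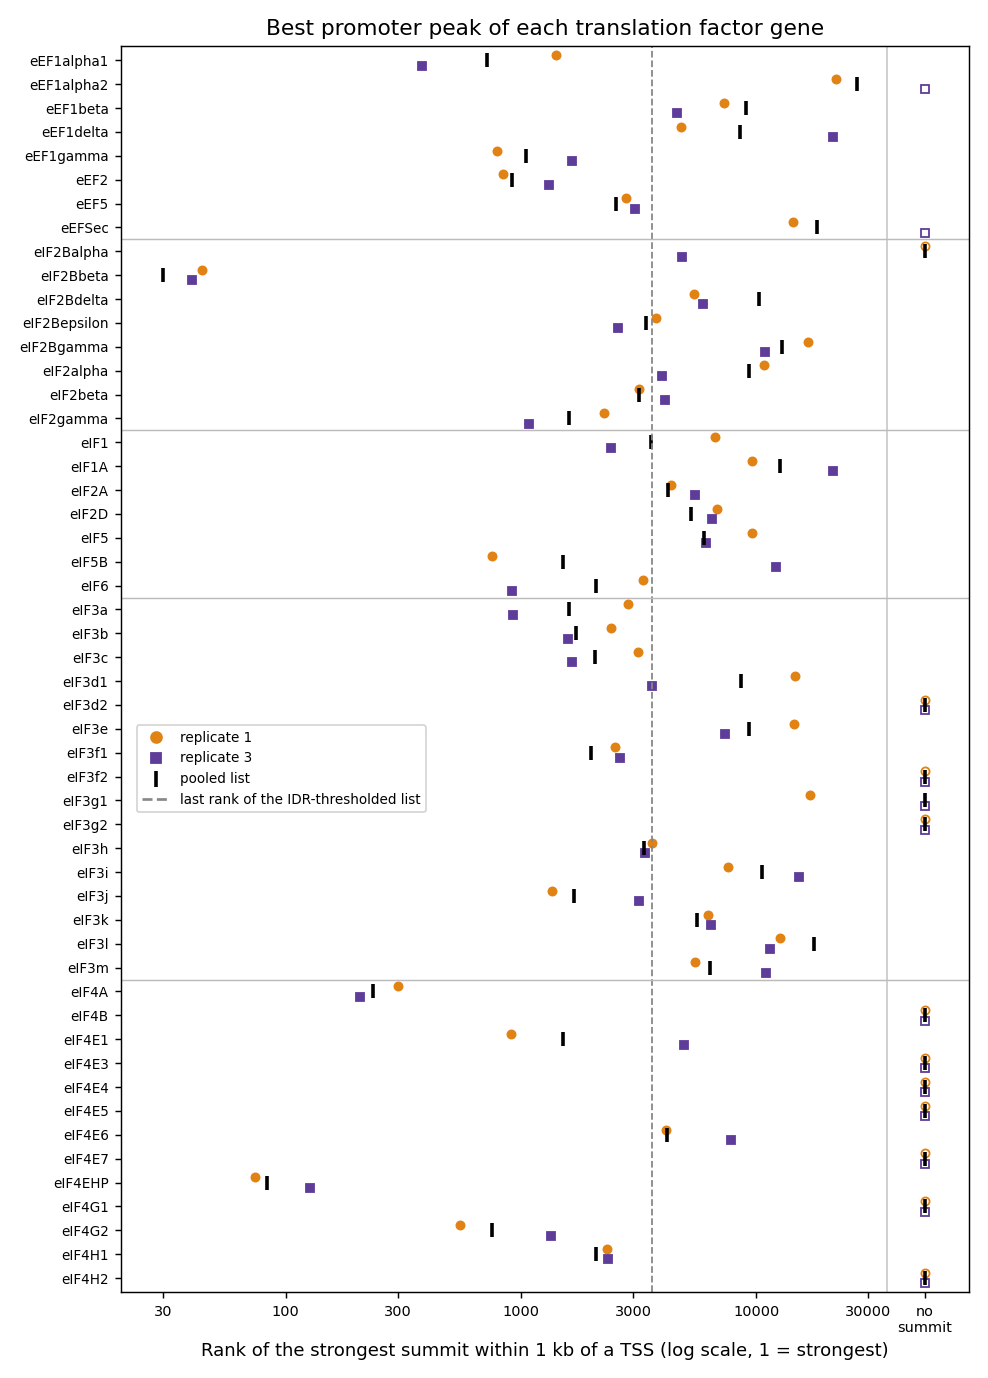
Rank of the strongest summit within 1 kb of a TSS (logarithmic horizontal axis, 1 is the strongest) for each of the 52 genes in replicate 1 (circles), replicate 3 (squares) and the pooled list (ticks), by role from elongation factors at the top to the eIF4 group at the bottom; marks right of the grey line have no such summit. The 22 genes with a pooled tick at or left of the dashed line are those in the IDR-thresholded list, and 7 of the 10 genes with no summit in any list belong to the eIF4 group.

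Several paralogs of the same factor differed in these lists. Beside eIF4E1 and eIF4E6, the genes eIF4E3, eIF4E4, eIF4E5 and eIF4E7 had no promoter summit in any list, and the nearest pooled summits lay 31029, 27840, 1744 and 8744 bp away. eIF4G2 ranked 754, and eIF4G1, the general scaffold gene on chromosome 4, had its nearest pooled summit 28900 bp away. eIF4H1 ranked 2084, and the nearest pooled summit to eIF4H2 was 3198 bp away. eIF3f1 ranked 1986, while the nearest pooled summit to eIF3f2 was 3248 bp away. For eIF3d2 and eIF3g2 these distances were 57354 and 79815 bp. Their partners eIF3d1 and eIF3g1 also had no promoter summit in the IDR-thresholded list. In the pooled list eIF3d1 ranked 8664 and eIF3g1 had none, so the eIF3g pair did not differ in either list. eIF4B, an activator of the eIF4A helicase, lies near the centromere end of arm 3L (chr3L:27842669-27858271), 4762870 bp from the nearest pooled summit. The last summit of the arm in any list was at position 24028648, and eIF4B was among 21 protein-coding genes of 3L with every TSS more than 1 kb beyond it.

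The best rank within 1 kb of a member's TSSs varied between the replicates. The best summit was not always the same peak in both. At eIF1 it lay 265 bp downstream of the TSS in replicate 1 and 494 bp upstream in replicate 3. At eIF2Bdelta it lay 132 bp upstream in replicate 1 and 739 bp upstream in replicate 3. Comparisons of best ranks therefore do not always follow the same peak. Both replicate lists held 38 members. eEF1alpha2, eEFSec and eIF3g1 were in the replicate 1 list alone, and eIF2Balpha was in the replicate 3 list alone. Of the 38 members in both, 19 had the better rank in replicate 1 and 19 in replicate 3. Spearman's rho between the best ranks was 0.68 across the 38 members and 0.681 across the 7510 genes in both lists, where the points share libraries and neighbouring genes share peaks. Ranks were within 2-fold of each other at 23 members and more than 3-fold apart at 7. The 5 widest gaps were at eIF5B, eIF4E1, eEF1delta (rank 4772 in replicate 1 and 21264 in replicate 3), eIF3d1 and eEF1alpha1. At eEF1delta these were different summits, 92 bp downstream of the TSS in replicate 1 and 286 bp downstream in replicate 3. Each of the 25 IDR-thresholded summits at members had a summit within 200 bp in both replicate lists, as did 98% of the 2358 promoter summits of that list. With the nearest such summit taken in each replicate, ranks were within 3-fold of each other at 18 of the 25 (72%), beside 71.7% of the 2358, so the members' share was near the background. Among the 3603 strongest peaks of each replicate, 19 members (36.5%) were found in replicate 1, beside 21% of all genes, and 19 (36.5%) in replicate 3, beside 20.4%. Both sets held 16 members (30.8%), beside 14.2% of all genes. The 6 IDR-thresholded members missing from either set were eIF2beta, eIF4E1 and eIF5B in replicate 3 and eIF1, eIF2Bepsilon and eIF3h in replicate 1.

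Summits lay close to the start sites. At the 22 members with an IDR-thresholded promoter summit, the strongest one was a median of 88 bp from the nearest TSS of the gene (range 2 to 856 bp), beside 118 bp over the 2976 such genes in all. Within 200 bp were 18 of the 22 (81.8%), beside 69.3% of the 2976. Measured from the canonical TSS alone, the median was 173 bp. The strongest summit lay downstream of the TSS at 13 members and upstream at 9. It fell in an exon at 11 members, in an intron at 3 and outside the gene at 8. For 15 of the 22 the nearest protein-coding TSS was the member's own and for 2 it was shared, whereas for 5 (eIF2Bbeta, eIF4A, eIF1, eIF3b and eIF2Bepsilon) another gene's TSS was nearer. The counts by side, by exon or intron and by nearest TSS of the strongest summit were not made over all genes. Counting a summit only for the gene with the nearest TSS left 18 members (34.6%), beside 15.4% of all genes. These were 18 of the 22 members with an IDR-thresholded promoter summit, beside 2147 of the 2976 genes in all that had one. eIF4A was kept through its weaker summit, and the members lost were eIF2Bbeta, eIF1, eIF3b and eIF2Bepsilon. Among the 18 members with a promoter summit in the pooled list but not in the IDR-thresholded one, the strongest summit was nearer to another gene's TSS at 5, the genes eEF1beta, eEFSec, eIF2Bdelta, eIF3l and eIF5.

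**Figure D3:**
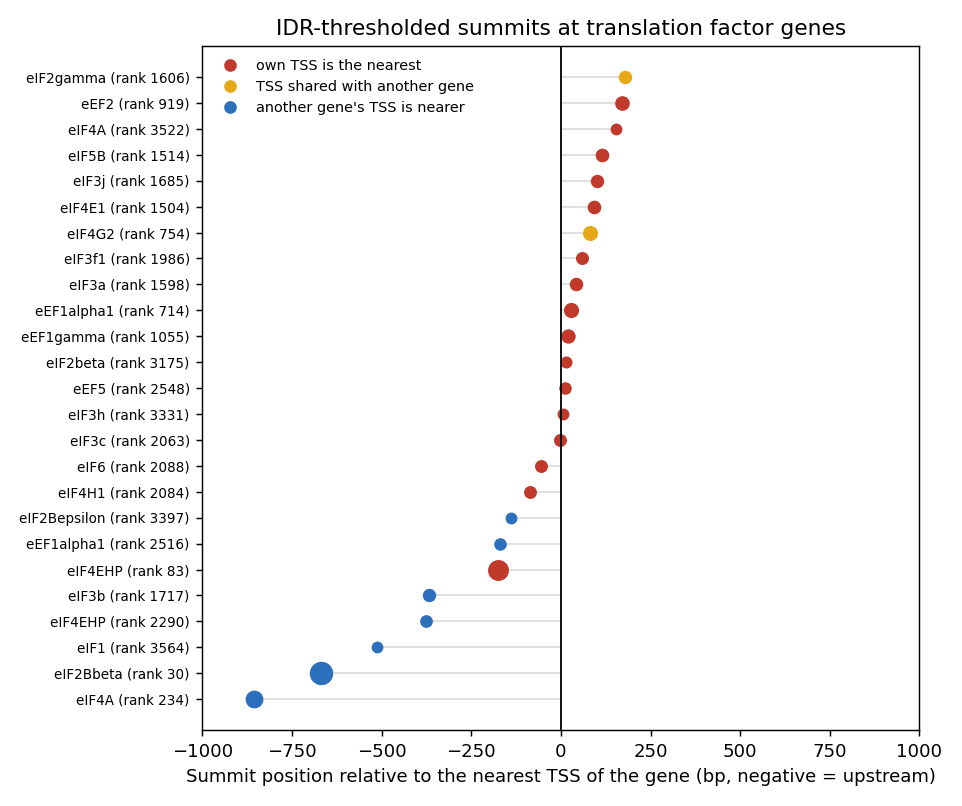
Position of the 25 IDR-thresholded summits relative to the nearest TSS of the 22 translation factor genes (bp, negative is upstream), 1 row per summit with its pooled rank, point area growing with the signal. Red points lie nearest to the gene's own TSS, yellow points at a TSS shared with another gene and blue points nearer to another gene, among them the summits of rank 30 and 234.

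Close neighbours and multiple start sites went with a promoter summit among members as among all genes. Another protein-coding TSS lay within 1 kb of 28 members (53.8%), beside 42.9% of all genes. Of these 28, 16 (57.1%) had an IDR-thresholded promoter summit, beside 31.8% of the 5985 such genes in all. Of the 24 members without a close neighbour 6 (25%) had one, beside 13.5% of 7960. Of the 20 members with more than 1 TSS, 14 (70%) had such a summit, beside 34% of all genes with more than 1 TSS. Of the 32 members with 1 TSS there were 8 (25%), beside 16.8%. The members' share lay above that of all genes in each of these classes, and the part that neighbours and TSS number have in the overall count was not tested. Members lay on all 6 arms, and the IDR-thresholded list held 3 of 5 on 2L (beside 20.9% of all genes of that arm), 6 of 13 on 2R (beside 22.1%), 4 of 11 on 3L (beside 23.4%), 6 of 15 on 3R (beside 22.7%), 0 of 1 on chromosome 4 (beside 20%) and 3 of 7 on X (beside 16.3%).

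Of the 5 members longer than 10000 bp, eIF4B and eIF4G1 held no summit in any list, and eIF5B was the only one with an IDR-thresholded summit inside the gene more than 1 kb from its TSSs. In eIF4G2 the best pooled summit beyond 1 kb ranked 13283. eIF5B spans 32320 bp and held 24 pooled summits, 22 of them more than 1 kb from its TSSs. The strongest of these, at position 3448140 of 3L, was intronic and 12463 bp from the nearest TSS, which is that of eIF5B itself. It ranked 530 in the IDR-thresholded list, 721 in replicate 1 and 607 in replicate 3, ranks closer to each other than those at the eIF5B promoter. eIF4EHP spans 45884 bp and held 7 pooled summits, all beyond 1 kb, and the strongest of them, rank 4025, was intronic and lay 58 bp from the TSS of the syntaxin gene Syx1A. Beyond 1 kb but within 2 kb of a TSS the IDR-thresholded list held summits for eIF2Bgamma (1244 bp, rank 2388), eIF3d1 (1325 bp, rank 767) and eIF2D (1607 bp, rank 2854).

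STAT-type sites were searched on both strands as TTCNNNGAA, where N is any base, and as the same letters with a spacer of 4 bases, in the 101 bp centred on each summit. The stricter palindrome TTCCNGGAA is a case of the pattern with the shorter spacer. Of the 25 IDR-thresholded summits at members, 2 (8%) held either pattern, beside 9.58% of all 2358 promoter summits of the list. They were TTCCAGGAA, the only palindrome, 23 bp from the stronger eIF4A summit, and TTCGCTGAA 38 bp from the summit of eEF1gamma, both shown above. That eIF4A summit lay 856 bp upstream of eIF4A and 110 bp downstream of the TSS of chic, which is read in the opposite direction. In the pooled list 10 of 84 member summits (11.9%) held either pattern, beside 7.36% of 12931. The direction depended on the window. Within 25 bp of the summit it was 2 of 84 (2.38%), beside 3.53%, and within 100 bp 15 of 84 (17.9%), beside 13.6%. GGTCACA was in 2 of the 25 (8%), beside 5% of the 2358. It lay 1 bp from the summit of eIF2Bepsilon and 6 bp from that of eIF2beta. CACGTG was in 1 (4%, beside 1.36%), 2.5 bp from the summit of eIF1. That summit lay 85 bp downstream of a TSS of RpL28, which is read in the opposite direction. CAGCTG and GAGAGAG were in 0 of the 25, beside 6.23% and 3.18%. The summit windows of members had a median GC content of 45.5%, beside 40.6% over all promoter summits.

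The DRE was counted at summits in the same way. In the IDR-thresholded list ATCGATA was in 0 of the 25 summit windows, beside 9.08% of the 2358. This did not hold in the other lists, where the members' share was near the background. Among the strongest peaks of each replicate it was in 2 of 21 windows (9.52%, beside 8.33%) in replicate 1 and 2 of 23 (8.7%, beside 8.74%) in replicate 3, and in the pooled list in 4 of 84 (4.76%, beside 5.89%). Within 500 bp of the IDR-thresholded summits it was present at 12 of the 25 (48%), beside 34.6%. In these 12 the nearest match was centred 47 to 100 bp from the summit at 4 (16% of the 25, beside 7.63% of the 2358), 100 to 200 bp at 5 (20%, beside 8.52%) and 200 to 300 bp at 3 (12%, beside 4.96%). It was 300 to 500 bp away at 0 of the 25, beside 4.37% of the 2358. Relative to the TSS, most of them lay just upstream: at -4 bp for eIF3f1, -5 bp for eIF2gamma, -8 bp for eIF6, -16 bp for eIF5B, -22 bp for eIF4E1, -34 bp for eIF3a, -37 bp for eEF1gamma, -48 bp for eIF4A and -58 bp for eIF4G2. It lay farther off for eIF3c (-183 bp), eIF1 (-293 bp) and eEF2 (377 bp).

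Promoter windows from 250 bases before to 50 bases after the canonical TSS were searched in all genes, whether or not they had a summit. ATCGATA on either strand was in 24 of the 52 members (46.2%), beside 17.7% of 13944 genes and 40.2% of the ribosomal protein genes. The longer TATCGATA was in 14 members (26.9%), beside 8.94% of all genes. GGTCACA was in 10 members (19.2%), beside 9.45%, and TATAAA in 24 (46.2%), beside 45.3%. Either STAT pattern was in 7 members (13.5%), beside 18.2% of all genes. Of the 24 members with ATCGATA, 13 (54.2%) had an IDR-thresholded promoter summit, beside 34.8% of the 2462 genes with it, and of the 28 members without it 9 (32.1%) did, beside 18.4% of all genes without it. The split by TATAAA gave the same members' shares, 54.2% of the 24 with it and 32.1% of the 28 without it, where all genes gave 20% and 22.4%. GGTCACA went the other way at members, with 3 of 10 (30%) with it and 19 of 42 (45.2%) without it, beside 35.4% and 19.9% of all genes. A match is a run of letters and says nothing of whether DREF or another factor was bound there. eIF3l carried ATCGATA in 3 places in the window shown above, although it had no promoter summit in the IDR-thresholded list. eIF4B carried a TATCGATA and also had none, but it lies beyond the last summit of its arm in any list. The lack of a summit at eIF4B therefore says nothing about the motif.

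The polypyrimidine TCT initiator, which takes the place of the usual initiator at ribosomal protein genes, was searched in the same windows. It has 8 spellings (CTTT after 1 pyrimidine and before 2 further ones, such as TCTTTCC). On either strand they were found somewhere in the window at 22 members (42.3%), beside 78.3% of ribosomal protein genes and 36.7% of all genes. On the sense strand alone they were found at 17 members (32.7%), beside 75% of ribosomal protein genes and 20.4% of all genes. Within 10 bases of the TSS on the sense strand, a position chosen after the counts were seen, they were found at 2 members (3.85%), beside 31.5% of ribosomal protein genes and 0.997% of all genes. Those 2 were eEF2 and eIF3f1, both with an IDR-thresholded promoter summit. They are shown in 30 bases around the TSS with the match in capitals (chr2L:21682102-21682131 and chr3R:4714168-4714197, both minus strand).
eEF2 start: gtcgctgcagcgcctcgcTCTTTCCtgtcg
eIF3f1 start: cccgcactatcgataggcCCTTTTCttgca

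**Figure D4:**
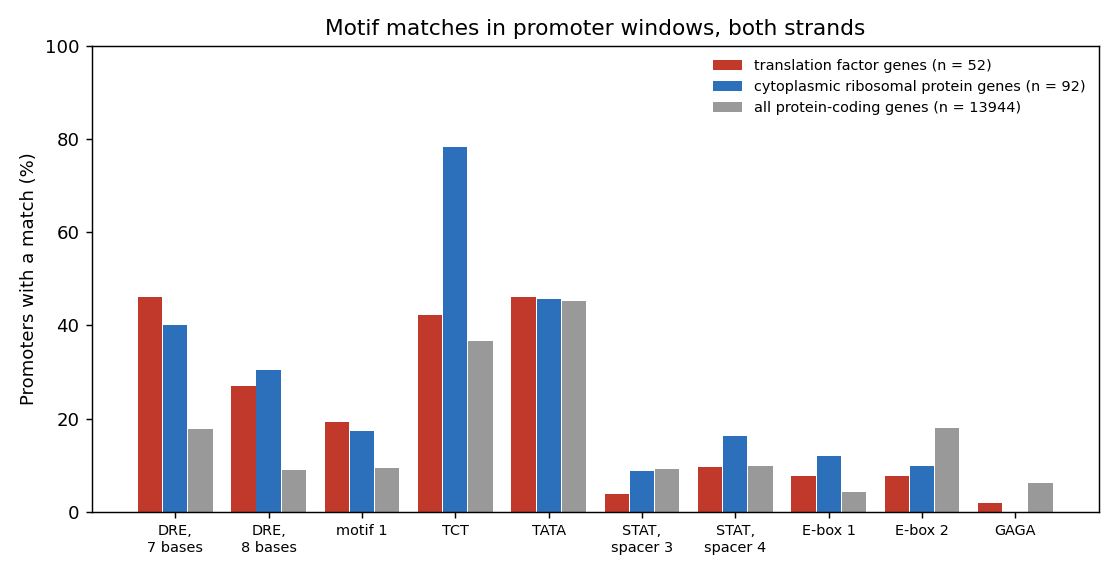
Share of promoter windows (%, from 250 bases before to 50 after the TSS, either strand) that hold each motif in translation factor genes (red, n = 52), ribosomal protein genes (blue, n = 92) and all protein-coding genes (grey, n = 13944). The DRE of 7 bases stands at 46.2%, 40.2% and 17.7% in that order, and the TCT element at 42.3%, 78.3% and 36.7%; E-box 1 is CACGTG and E-box 2 is CAGCTG.

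Translation genes with other names were read from a list of 30, of which 26 matched the annotation. Of these 26, 10 (38.5%) had an IDR-thresholded promoter summit, beside 21.3% of all genes, and 24 (92.3%) a pooled one, beside 59.3%. The strongest was at Lk6, the kinase of eIF4E, at rank 11 of the pooled list, with ranks of 24 in replicate 1 and 16 in replicate 3 and a summit at -981 bp. Next in rank came NAT1, an eIF4G-related factor (383), Thor, an eIF4E-binding repressor (424), and Paip2, which opposes poly(A)-binding protein (833). The recycling factor gene pix ranked 845, the DEAD-box helicase gene bel 1469, the mitochondrial release factor gene mRF1 2393, the eIF2alpha kinase gene PEK 2529, the poly(A)-binding protein gene pAbp 2838 and the termination factor gene eRF3 3107. The termination factor gene eRF1 ranked 6505 and the eIF2alpha kinase gene Gcn2 3753, both outside the IDR-thresholded list. Also outside it were, among others, S6k (6833), raptor (7572), mxt (11482) and cup (21111). DENR and mIF3 had a promoter summit in replicate 3 alone.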

How the data were processed

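Peak lists of 2 biological replicates were analysed, with members and gene lists chosen with earlier results of these data known. Per the file lists deposited beside the samples, the authors called peaks on build dm6 for each replicate against a control and for both replicates pooled, and thresholded a further list by IDR. Aligner, peak caller and IDR threshold were not given in the sources used. The deposited signal is a score without a stated unit, and the deposited −log10 q-value took the value 3.62 in all IDR-thresholded peaks, so ranks used the signal. The number of peaks per list was fixed at 30000 apart from the IDR-thresholded list, and read depth is unknown. Fragments were sonicated to 200 to 800 bp per the labels' protocols.

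The summit of a peak is its start (column 2) plus the deposited offset (column 10). TSSs of all protein-coding transcripts came from the Ensembl annotation BDGP6.54, and promoter windows were cut from the RefSeq copy of Release 6. Named were all members, with values for those in the IDR-thresholded list, paralogs, the best ranks, the 5 widest replicate gaps and genes near the 1 kb limit. Also named were the other translation genes in the IDR-thresholded list and some outside it. Ribosomal protein genes were those with symbols starting RpL or RpS, and proteasome genes those starting Prosalpha, Prosbeta, Rpn or Rpt. Alternatives changed the distance to the TSS, the TSS set, the summit rule, the peak set, the motif window and the strand. Assignment and motif search were tested on simulated data. Python 3.11.15, pandas 2.3.3, numpy 2.4.6, scipy 1.17.1 and matplotlib 3.10.9 were used.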

Additional observations from a re-analysis of the deposited data

How the results depend on the processing

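No paired analysis was possible because the study has 1 group. Of 65 alternatives over 16 results, 46 stayed within 1.5 times the main value and 19 moved further. The count of 22 members in the IDR-thresholded list ranged from 16 to 25 over changes of distance, TSS set, summit rule and peak set, and was 19 without either replicate. With the strongest 50% of the list it was 13 (25%), beside 10.8% of all genes, fewer by construction. That setting left 37 ribosomal protein genes, 6 other translation genes and 3 proteasome genes (6.25%, beside 10.8%). The proteasome count of 14 (29.2%, beside 21.3%) was 9 (18.8%, beside 15.4%) with nearest-gene assignment and 8 to 14 without each replicate in turn. It fell below the share of all genes with the strongest 50%, in the strongest peaks of both replicates (4, or 8.33%, beside 14.2%) and without replicate 1 (8, or 16.7%, beside 20.4%). The median distance of 88 bp became 173 bp from the canonical TSS. Motif counts at summits were small and moved. The STAT count of 2 (8%) stood beside 9.58% of all promoter summits. It was 0 within 25 bp (beside 4.45%) and 4 within 100 bp (16%, beside 16.6%). Without replicate 3 it was 1 (4.76%, beside 8.96%) and without replicate 1 it was 2 (8.7%, beside 9.62%). ATCGATA, at 0 (beside 9.08%), was 4 within 100 bp (16%, beside 16.5%). It was 2 without replicate 3 (9.52%, beside 8.33%) and 2 without replicate 1 (8.7%, beside 8.74%). GGTCACA, at 2 (8%, beside 5%), was 4 within 100 bp (16%, beside 9.46%). It was 1 without replicate 3 (4.76%, beside 4.65%) and 1 without replicate 1 (4.35%, beside 4.33%). In promoters, GGTCACA was in 6 members (11.5%, beside 6.55% of all genes) on the sense strand. TCT was in 2 (3.85%, beside 0.997%) within 10 bases of the TSS, an alternative added after seeing the data. Where no construction is named, the cause was not tested. Peak lists without counts limit every value to presence and rank.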
